A study of Mus musculus with 16 samples.

Results

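The p53 target and sestrin genes are 32 genes that make up the p53 tumour suppressor, its main regulators, transcripts that p53 is known to raise, and the sestrin family. They were taken by symbol from the 2 deposited tables of the series, one for multipotent progenitors (MPP) and one for granulocyte-monocyte progenitors (GMP). The symbols of 31 of the 32 genes were found among 23420 gene rows in each table. The missing symbol was Tigar, and its older symbol 9630033F20Rik is present in both tables and is given separately below. In MPP 25 of the 31 genes were tested by the authors, 3 had a mean under 10 and 3 were marked as outliers. In GMP 28 were tested and 3 had a mean under 10.

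RNA was measured by sequencing in cells sorted from mouse bone marrow at 40 weeks of age. MPP carried Kit, Sca1 and CD48 without lineage markers or CD150, and GMP carried Kit and CD16/32 without lineage markers, Sca1 or CD150. The WT group of each population was labelled with the genotype Tet2fl/fl, a floxed allele, and the Tet2KO group with Tet2-/-. There were 4 mice in each of the 4 groups, and 3 mice of each genotype gave both populations. The labels used here name no Cre driver, so the cells in which Tet2 was deleted are not stated. Each library came from amplified total RNA of 1 mouse. The tables hold 1 mean, 1 log2 fold change and 1 standard error (SE) per gene and population, and no value per library, so that the spread between mice is seen here through the SE.

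The transcription factor p53 is stabilised when cells meet DNA damage or other stress. It then raises genes that stop the cell cycle, repair DNA or start cell death, and Mdm2, itself a p53 target, closes the loop by marking p53 for degradation. Sestrins are stress-induced proteins that bind the GATOR2 complex and restrain the growth kinase complex mTORC1. Sesn1 is a p53 target, whereas Sesn2 also responds to ATF4 and Sesn3 to FOXO factors. In blood progenitors p53 and Cdkn1a are known for limiting cycling.

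The promoter sequences below show which members carry letters similar to the p53 response element close to a start of transcription. They also show what the promoters of the called genes look like. Binding of p53 was not measured. RefSeq promoter windows on GRCm38.p6, 250 bases before to 50 after each start, were present for 23 of the 32 genes in 30 windows. No window was at hand for Pmaip1, Perp, Tnfrsf10b, Trp53inp1, Zmat3, Ddb2, Xpc, Rrm2b and Ptp4a3. The p53 response element consensus, a pair of decamers of 10 bases each that reads the same on both strands, was searched with a spacer of up to 13 bases and at most 1 mismatch in all. It was found in 4 of the 30 windows (13.3%), those of Cdkn1a, Bax, Ccng1 and Polk, against 1.09% of 32851 windows of the same length in the genome. The members were listed as p53 targets to begin with, so this share is a description. The stretches are printed from 5′ to 3′ with up to 30 bases on either side and with the decamers in capitals.
Cdkn1a (0 mismatches, spacer of 12 bases), chr17:29090876-29090967, plus strand: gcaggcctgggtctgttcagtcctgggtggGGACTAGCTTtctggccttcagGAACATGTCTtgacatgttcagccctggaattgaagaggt
Cdkn1a (1 mismatch, no spacer), chr17:29090898-29090977, plus strand: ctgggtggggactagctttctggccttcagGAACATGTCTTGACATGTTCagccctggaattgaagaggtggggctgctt
Bax (1 mismatch, spacer of 1 base), chr7:45467060-45467140, minus strand: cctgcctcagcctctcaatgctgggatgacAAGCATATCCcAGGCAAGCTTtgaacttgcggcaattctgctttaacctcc
Ccng1 (1 mismatch, no spacer), chr11:40755432-40755511, minus strand: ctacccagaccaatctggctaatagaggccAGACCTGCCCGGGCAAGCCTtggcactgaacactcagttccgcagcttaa
Polk (1 mismatch, spacer of 1 base), chr13:96519368-96519437, minus strand: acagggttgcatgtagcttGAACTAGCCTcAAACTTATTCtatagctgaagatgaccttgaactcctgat
The Cdkn1a pairs lie before the upstream of 2 annotated starts and share a decamer. The other Cdkn1a window, at the downstream start, held no pair within 1 mismatch. The Polk pair lies before the downstream of its 2 annotated starts, and the window at the upstream start had 4 mismatches at best. No pair within 1 mismatch was found in the windows of the sestrins, Trp53, Mdm2 or Mdm4. Introns and other sequence outside the windows were not searched, so an element there would have been missed.

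The windows of Sesn1 are shown because it was the gene called in MPP, and because TET enzymes act on cytosines that are followed by guanine (CpG). The 250 bases before each of its 2 annotated starts are printed with every CpG in capitals, followed by those before the downstream start of Cdkn1a.
Sesn1, upstream start, chr10:41810324-41810573, plus strand: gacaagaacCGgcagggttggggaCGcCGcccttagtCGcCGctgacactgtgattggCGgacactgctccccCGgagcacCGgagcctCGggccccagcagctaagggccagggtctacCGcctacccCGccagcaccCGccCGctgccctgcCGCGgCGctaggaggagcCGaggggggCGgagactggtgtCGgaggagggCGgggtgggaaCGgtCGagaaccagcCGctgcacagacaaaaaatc
Sesn1, downstream start, chr10:41887189-41887438, plus strand: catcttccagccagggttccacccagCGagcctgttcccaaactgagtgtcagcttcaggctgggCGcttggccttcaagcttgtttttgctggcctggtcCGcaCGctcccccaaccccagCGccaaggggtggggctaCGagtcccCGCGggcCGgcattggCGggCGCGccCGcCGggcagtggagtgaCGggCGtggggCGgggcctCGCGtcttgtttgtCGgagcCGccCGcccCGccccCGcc
Cdkn1a, downstream start, chr17:29093519-29093768, plus strand: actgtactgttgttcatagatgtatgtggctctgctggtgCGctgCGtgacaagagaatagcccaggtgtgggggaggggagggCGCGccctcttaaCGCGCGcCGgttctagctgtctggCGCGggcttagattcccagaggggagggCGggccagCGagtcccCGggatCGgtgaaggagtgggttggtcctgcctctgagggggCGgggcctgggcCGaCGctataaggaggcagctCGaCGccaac
These stretches held 23, 24 and 19 CpG, and the stretch before the upstream start of Cdkn1a held 2. Over full windows the median number of CpG was 22.5 in the 30 windows of the members and 7 in all windows. The E-box letters CACGTG, which read the same on both strands, occurred in 6 of the 30 windows (20%) and in 7.15% of all windows. Neither Sesn1 nor Cdkn1a was among them. The tables give 1 value per gene, so the starts of a gene cannot be told apart.

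The members covered a wide range of levels. Per kb of annotated exon, Trp53 had the highest mean normalised count of the 31 genes in both tables, 922 in MPP and 1013 in GMP. Ccng1, encoding cyclin G1, was next with 572 in MPP and 708 in GMP. Sesn1 ranked 3 in MPP (323) and 5 in GMP (186). The ubiquitin ligase gene Mdm2 had 273 and 268 per kb, and its relative Mdm4, a p53 inhibitor, 139 in MPP. Near the bottom were the death receptor gene Fas (4.57 in MPP), the AKT inhibitor gene Phlda3 (4.90 and 3.49) and the TNF receptor family gene Eda2r (2.80 and 2.14). The kinase gene Plk2 had the lowest level, with a mean normalised count of 2.67 in MPP and 0.748 in GMP before division by length.

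**Figure D1:**
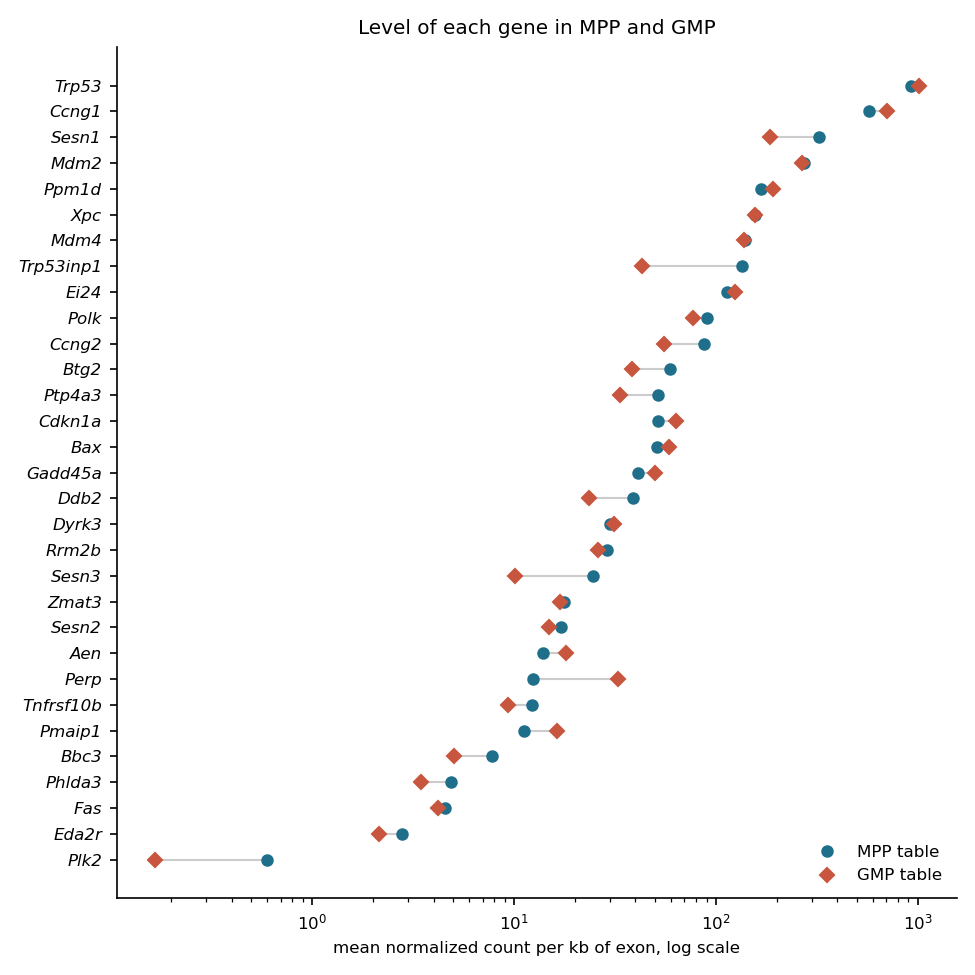
Mean normalised count per kb of exon (log scale) of each of the 31 genes in the MPP table (circles) and the GMP table (diamonds). Sesn1, Sesn3 and Trp53inp1 lie further to the left in GMP than in MPP, while Trp53, Mdm2, Mdm4 and Xpc lie at nearly the same level.

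The tables were normalised separately, so levels were set across them relative to the median gene and without a test. Both means reached 50 for 9536 genes, and the log2 ratio of GMP to MPP had quartiles of -0.27 and 0.23 around that median. For Trp53 the ratio was 0.02, for Mdm2 -0.14 and for Mdm4 -0.12, all between those quartiles. The stress protein gene Trp53inp1 had a ratio of -1.77, Sesn3 of -1.39 and Sesn1 of -0.91. Of 24 members with such means 2 (8.33%) lay at or below -1, against 3.86% of all these genes. The mean of Sesn1 was 1287 in MPP and 739 in GMP, that of Sesn3 377 and 156, and that of Sesn2 59.6 and 51.6. Perp, a membrane protein gene linked to p53-dependent death, went the other way, with means of 24.2 in MPP and 64.1 in GMP.

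The comparison of Tet2KO with WT asks which of these transcripts differ with the Tet2 genotype. Tet2 itself had a log2 fold change of 0.44 in MPP and 0.35 in GMP in the authors' deposited tables, both called by DESeq2 (adjusted p = 0.00551 and 0.000409). The transcript of the targeted gene was thus higher, not lower, under the label Tet2KO. The value covers the gene as a whole and does not check the deleted stretch, so every direction is given for libraries by their label. In MPP 1 of the 25 tested members was called at the authors' adjusted p of 0.05, and it was lower. Of all 11859 tested genes 0.616% were called, 0.346% higher and 0.27% lower. In GMP 1 of the 28 tested members was called, and it was higher. Of all 11503 tested genes 3.96% were called there, 1.75% higher and 2.22% lower. The called genes were Sesn1 in MPP and Cdkn1a in GMP.

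**Figure D2:**
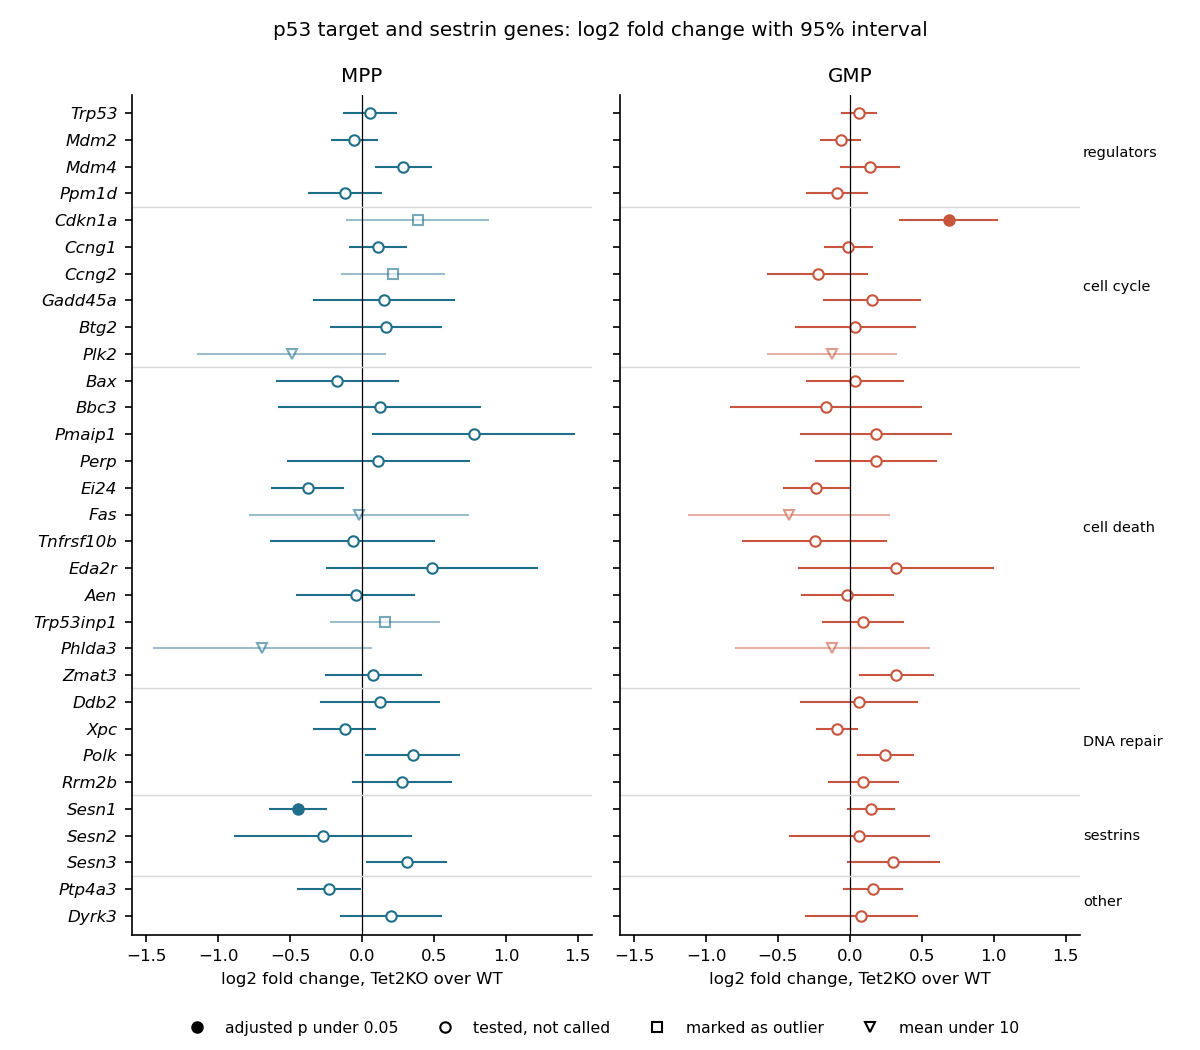
Tet2KO against WT as log2 fold changes with 95% intervals for the 31 genes, grouped by role, in MPP (left) and GMP (right), from the authors' deposited tables. Filled circles passed the adjusted p of 0.05, squares were marked as outliers and triangles had a mean under 10. Sesn1 in MPP and Cdkn1a in GMP are the filled points.

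Sesn1 fell in MPP labelled Tet2KO. The authors' deposited table gives a log2 fold change of -0.45 (SE 0.0992, 95% interval -0.64 to -0.25, DESeq2 adjusted p = 0.00405), at a mean of 1287. On the linear scale it fell by 26.6%. It was number 20 of the 11859 tested genes by p-value. In GMP its log2 fold change was 0.15 (SE 0.0803, 95% interval -0.01 to 0.30, DESeq2 adjusted p = 0.348), which did not pass. The gene lies on chromosome 10 from 41809935 to 41908424, plus strand, in mm10. With the spread of all test statistics taken from the data, an empirical null, the adjusted p of Sesn1 in MPP was 0.0585 and the call was lost. Over the 4 alternatives with an adjusted p of their own it ran from 0.00390 to 0.0585.

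The change of Sesn1 in GMP was set against that in MPP in a single test. The log2 fold change in GMP minus that in MPP was 0.59 (SE 0.128, 95% interval 0.34 to 0.84, adjusted p = 0.0206 from a normal test over the 17660 genes that have p-values in MPP and GMP). It was number 2 of these genes by p-value, and 8 genes (0.0453%) passed. Of the 28 members tested for a difference, 3 of them with means under 10, 1 passed, and the next smallest adjusted p was 0.9999. The phosphatase gene Ptp4a3 had the next smallest p among the members, with log2 fold changes of -0.23 in MPP and 0.16 in GMP and a difference of 0.39 (95% interval 0.09 to 0.68). The median difference was -0.003 over the members and 0.005 over all genes. Independent errors were assumed, although 3 mice of each genotype gave both populations.

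**Figure D3:**
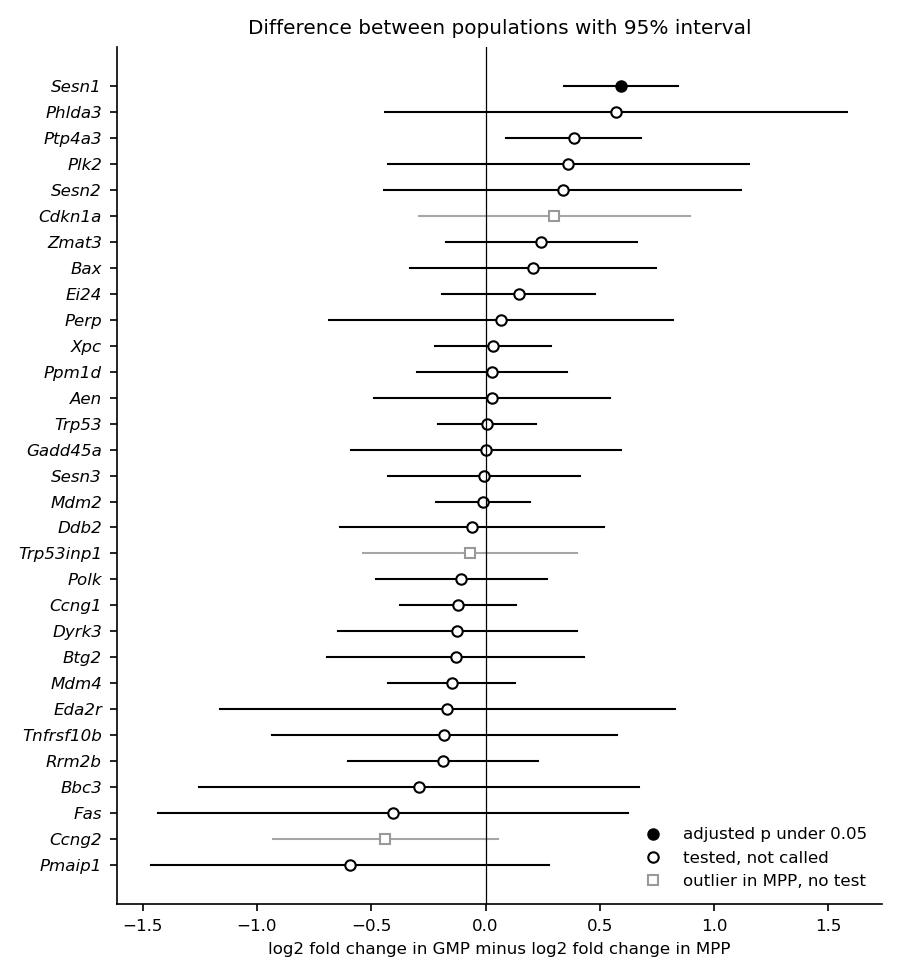
Difference of the log2 fold changes, GMP minus MPP, with its 95% interval for the 31 genes in order of size. Sesn1 (filled) lies at 0.59 and passed. Grey squares are the 3 genes marked as outliers in MPP, for which no test was made.

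The other sestrins were not called in either population. Sesn3 had nearly equal log2 fold changes of 0.31 (SE 0.14) in MPP and 0.30 (SE 0.162) in GMP in the authors' deposited tables, opposite in sign to Sesn1 in MPP. The DESeq2 adjusted p was 0.426 and 0.339, and the difference between populations had a 95% interval of -0.43 to 0.41. Sesn2 had values of -0.27 (SE 0.312) in MPP and 0.07 (SE 0.246) in GMP. At its SE a change of 1.13 on the log2 scale would have been needed for a call in MPP, so a fall as large as that of Sesn1 was not detectable for it. The row 9630033F20Rik, an older symbol of Tigar, whose product lowers glycolytic flux, had log2 fold changes of 0.13 (SE 0.347) and 0.21 (SE 0.162) and was not called.

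Cdkn1a rose in GMP labelled Tet2KO. This gene encodes p21, the inhibitor of cyclin-dependent kinases through which p53 stops the cell cycle. The authors' deposited table gives it a log2 fold change of 0.69 (SE 0.171, 95% interval 0.35 to 1.02, DESeq2 adjusted p = 0.00453), a 1.61-fold rise at a mean of 225. It was number 152 of the 11503 tested genes by p-value. In MPP the authors marked Cdkn1a as an outlier, so it has no p-value there, and its log2 fold change was 0.39 (SE 0.249) at a mean of 184. The difference between populations was 0.30 (95% interval -0.29 to 0.89), and the gene was not among those tested for it. With the empirical null the adjusted p in GMP was 0.227 and the call was lost. Over the 4 alternatives with an adjusted p of their own it ran from 0.00411 to 0.227. The gene lies on chromosome 17 from 29090976 to 29100727, plus strand, in mm10, and 7.68% of its exonic bases overlap an antisense gene. The sources used here do not say whether reads were counted by strand.

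The regulators of p53 were not called. Trp53 had log2 fold changes of 0.05 (95% interval -0.12 to 0.23) in MPP and 0.06 (95% interval -0.06 to 0.18) in GMP in the authors' deposited tables. These are among the narrowest intervals of the members, and a change of 0.33 in MPP or 0.19 in GMP would have been called. Mdm2 had values of -0.05 (95% interval -0.21 to 0.10) and -0.06 (95% interval -0.20 to 0.07). Ppm1d, a phosphatase that switches p53 signalling off, had values of -0.12 and -0.09. Mdm4 had values of 0.29 (SE 0.0973) in MPP and 0.14 (SE 0.103) in GMP, with DESeq2 adjusted p-values of 0.190 and 0.560.

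The cell cycle members beside Cdkn1a were not called. Ccng1 had a log2 fold change of 0.11 (SE 0.0994) in MPP and -0.01 (SE 0.0825) in GMP in the authors' deposited tables. Ccng2, encoding cyclin G2 and known as a FOXO target, was marked as an outlier in MPP (0.21) and was not called in GMP (-0.22, SE 0.174). Btg2, an antiproliferative gene, had values of 0.17 and 0.04, and the stress gene Gadd45a had 0.15 in both. Their 95% intervals in MPP were wide, -0.21 to 0.55 for Btg2 and -0.33 to 0.64 for Gadd45a. Of the exonic bases of Gadd45a 19.1% overlap a gene on the opposite strand. Plk2 (-0.49 and -0.13) had means under 10 and was not tested.

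The cell death members were not called in either population. In MPP 5 of 9 tested genes lay above 0 and 4 below, and in GMP 6 of 10 lay above and 4 below. Pmaip1, encoding the BH3-only protein Noxa, had the largest value of any member in MPP, 0.78, with an SE of 0.355 at a mean of 30.6 (DESeq2 adjusted p = 0.439). A change of 1.28 would have been needed for a call at that SE. In GMP its value was 0.18. Ei24, which encodes an endoplasmic reticulum protein of autophagy, had a value of -0.38 in MPP (SE 0.126, DESeq2 adjusted p = 0.165). Its value in GMP was -0.23 (SE 0.116, DESeq2 adjusted p = 0.288) in the authors' deposited tables. Zmat3, an RNA-binding protein gene, had 0.08 (SE 0.169) in MPP and 0.32 (SE 0.129, DESeq2 adjusted p = 0.144) in GMP.

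Among the remaining death genes, the pore-forming Bax had values of -0.17 and 0.04, and Bbc3, encoding the BH3-only protein Puma, 0.12 and -0.17. Of the exonic bases of Bax 12.2% overlap another gene on the same strand. The death receptor gene Tnfrsf10b had -0.07 and -0.25, Eda2r 0.49 and 0.32, and Perp 0.11 and 0.18. The nuclease gene Aen had -0.05 and -0.02 in the authors' deposited tables. Trp53inp1 had 0.09 in GMP and was marked as an outlier in MPP (0.16). Fas (-0.02 and -0.42) and Phlda3 (-0.69 and -0.12) had means under 10 and were not tested. For these rare transcripts the SE ran up to 0.387, so their values say little about a change of moderate size.

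The DNA repair members were not called, and 3 of 4 lay above 0 in each population. Polk, a translesion polymerase gene with the p53 pair shown above in 1 of its 2 windows, had log2 fold changes of 0.35 (SE 0.164) in MPP and 0.24 (SE 0.0979) in GMP in the authors' deposited tables. The DESeq2 adjusted p was 0.453 and 0.146. Rrm2b, a ribonucleotide reductase subunit gene induced by p53, had 0.28 and 0.09. Of the nucleotide excision repair genes, Ddb2 had 0.12 and 0.06 and Xpc -0.12 and -0.09. Part of Ddb2, 23.8% of its exonic bases, overlaps Acp2 on the opposite strand. Of the last members, Ptp4a3 had -0.23 (SE 0.11, DESeq2 adjusted p = 0.480) in MPP and 0.16 in GMP, and the kinase gene Dyrk3 0.20 and 0.08. The other genes with the p53 pair in their window, Bax and Ccng1, were not called in either population.

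Over all members together, the median log2 fold change of the tested members was 0.11 in MPP, where 15 lay above 0 and 10 below, against -0.004 over all tested genes. In GMP it was 0.07, with 19 above and 9 below, against 0.0003. At an unadjusted p of 0.05, 7 of 25 members (28%) passed in MPP, 4 higher and 3 lower, where 9.72% of all tested genes did. In GMP 4 of 28 (14.3%) passed, 3 higher and 1 lower, where 16.4% of all tested genes did. The MPP genes were Sesn1, Ei24, Mdm4, Sesn3, Pmaip1, Polk and Ptp4a3, and the GMP genes Cdkn1a, Zmat3, Polk and Ei24. In MPP outlier marks fell on 3 of the 28 members whose mean reached 10 (10.7%), against 3.5% of all such genes. Without Sesn1 and Cdkn1a, 6 of 24 passed in MPP and 3 of 26 in GMP. The members were chosen with earlier results of these data known, so their shares at an unadjusted p of 0.05 are a description.

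**Figure D4:**
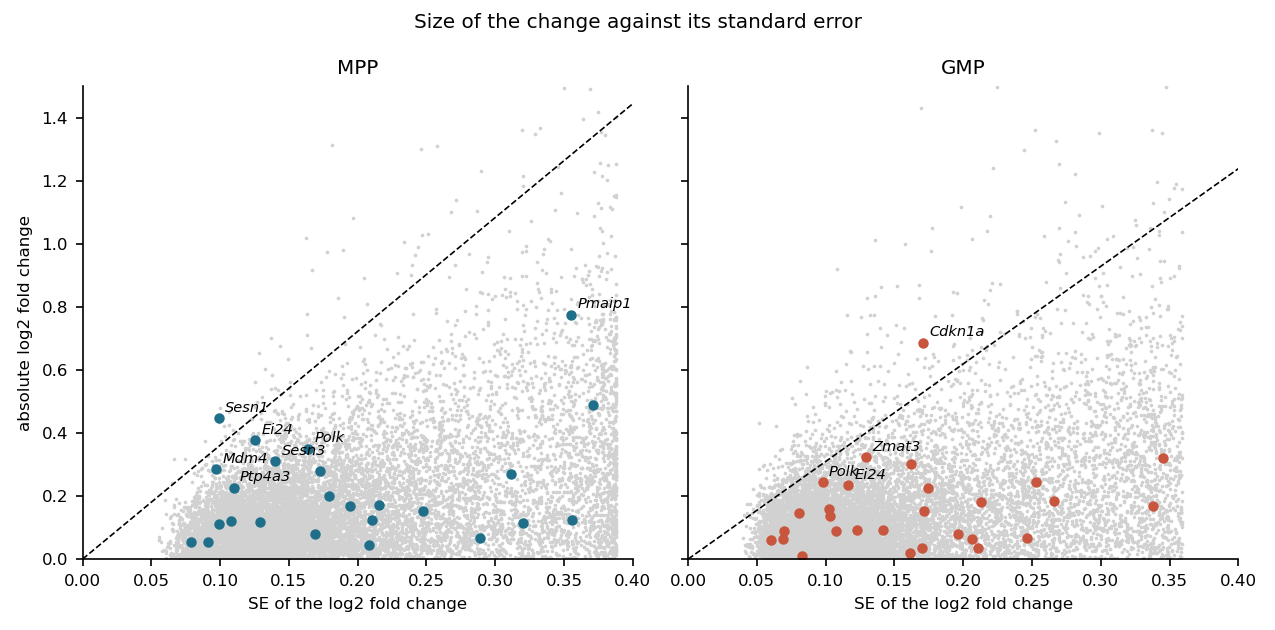
Absolute log2 fold change against its SE for the tested members (coloured) and all tested genes (grey) in each population. The dashed line is the smallest ratio of change to SE among called genes, 3.61 in MPP and 3.09 in GMP, and members with an unadjusted p under 0.05 are named. Sesn1 and Cdkn1a lie above the line.

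The rest of the pathway was read from lists of known pathway genes. Their counts stand beside shares over all tested genes of 0.616% called in MPP and 3.96% in GMP, and of 9.72% and 16.4% at an unadjusted p of 0.05. The genes called in these lists, Abhd4, Gpx1, Rheb and Asns, had larger DESeq2 p-values in GMP than Cdkn1a. The call of Cdkn1a was lost with the empirical null, so theirs are no firmer. Of 20 tested kinases, cofactors and partners that act on p53, none was called by DESeq2 in MPP or in GMP in the authors' deposited tables, with 1 and 3 at an unadjusted p of 0.05. The median was 0.07 in MPP and 0.04 in GMP. The damage kinase gene Atm had values of 0.04 and 0.06, the acetyltransferase genes Crebbp 0.17 and 0.14 and Ep300 0.16 and 0.13, and the kinase gene Hipk2 0.19 and 0.06. The checkpoint kinase gene Chek2 had 0.24 (SE 0.127) and 0.18, and Trp53rk, encoding a p53-related kinase, 0.17 and 0.48 (SE 0.206). Cdkn2a, which encodes the p53 activator Arf, was close to undetected, with means of 0.125 and 0.616.

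Of a wider list of p53 targets, 35 were tested in MPP and none was called by DESeq2, with 4 at an unadjusted p of 0.05. In GMP 2 of 36 were called and both were lower, where 2.22% of all tested genes were called lower. In the authors' deposited table Abhd4, encoding a lipase, fell by 0.33 (SE 0.0968, DESeq2 adjusted p = 0.0219). Gpx1, encoding glutathione peroxidase, fell by 0.20 (SE 0.0592, DESeq2 adjusted p = 0.0302). The medians of -0.02 in MPP and -0.05 in GMP lay on the other side of 0 from those of the members. Zfp385a, encoding a p53 partner, had values of 0.39 (SE 0.146) and 0.36 (SE 0.158), and Triap1, a p53-induced survival gene, -0.63 (SE 0.278) and -0.20 (SE 0.165).

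Partners of the sestrins in nutrient sensing were tested for 33 genes in MPP, of which none was called by DESeq2, with 4 at an unadjusted p of 0.05. In GMP 1 of 32 was called. In the authors' deposited table Rheb, the GTPase gene that activates mTORC1, fell by 0.31 (SE 0.096, DESeq2 adjusted p = 0.0353). The GATOR2 subunit gene Wdr24 had -0.37 (SE 0.158) in MPP and 0.20 (SE 0.131) in GMP, and the AMPK subunit gene Prkag2 -0.33 (SE 0.118) and 0.18 (SE 0.137). Their differences between populations did not pass (adjusted p = 0.949 and 0.936). The kinase gene Mtor had values of 0.04 (SE 0.0797) and -0.002 (SE 0.0734).

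Factors that act on Sesn3 and Sesn2 were also read. Of FOXO factors and targets, 13 were tested in MPP and 14 in GMP, and none was called by DESeq2, with 0 and 3 at an unadjusted p of 0.05. Foxo1 had values of 0.03 in MPP and 0.35 (SE 0.125, DESeq2 adjusted p = 0.0885) in GMP, and Bcl2l11, encoding the BH3-only protein Bim, -0.17 and 0.31 (SE 0.108, adjusted p = 0.0781). In MPP the insulin receptor gene Insr had 0.19 and the autophagy gene Gabarapl1 -0.21. Of ATF4 and its targets 10 were tested in each population. None was called in MPP, with 0 at an unadjusted p of 0.05, and in GMP 1 was called. In the authors' deposited table Asns, the asparagine synthetase gene, fell by 0.38 (SE 0.111, DESeq2 adjusted p = 0.0217). It was marked as an outlier in MPP. The stress factor gene Ddit3 had 0.35 in MPP, and Phgdh, a serine synthesis gene, -0.15. Atf4 itself had values of 0.01 and 0.05.

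**Figure D5:**
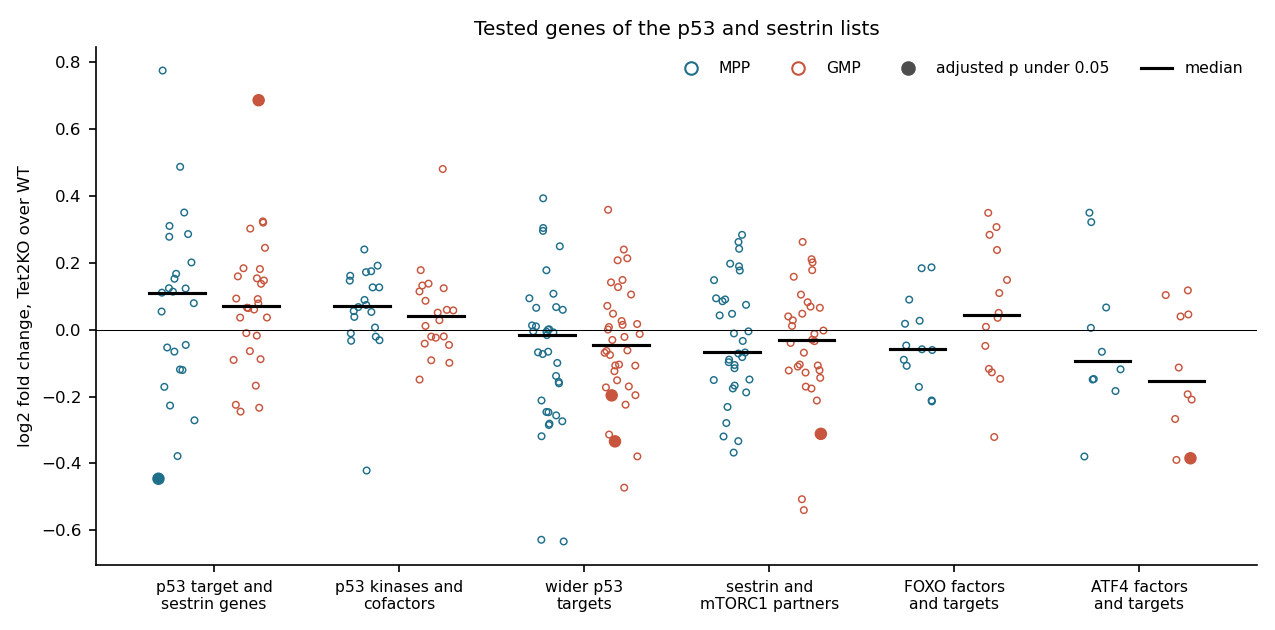
Log2 fold changes of the tested genes of 6 lists in MPP and GMP, with the median of each as a bar and called genes filled. The called genes are Sesn1 and Cdkn1a among the members, and Abhd4, Gpx1, Rheb and Asns, all lower, in GMP.

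The markers of the sorting gates were read next. Kit had means of 7542 in MPP and 6397 in GMP, and Ly6a, which encodes Sca1, 266 and 19.5. Fcgr3, which encodes CD16, had 19.3 in MPP and 525 in GMP, and the granule gene Mpo 23699 and 200049. Itgam, which encodes the lineage marker CD11b that the gates left out, had means of 840.6 in MPP and 572.4 in GMP and was marked as an outlier in both. The granule genes Mpo, Elane, Prtn3 and Ctsg were all marked as outliers in MPP. Fewer cells of a type and less RNA per cell cannot be told apart in such sorted bulk samples. Of all tested genes in GMP 3.96% were called, 1.75% higher and 2.22% lower. Beside the rise of Cdkn1a in GMP, 2 of 4 tested megakaryocyte markers were called, both higher. They were Vwf, up by 1.01 (SE 0.206), and Pf4, up by 1.35 (SE 0.345), in the authors' deposited table. The tested markers that were not called were Itga2b, with 0.11 (SE 0.125), and Gp9, with -0.34 (SE 0.346). The means of the 6 listed megakaryocyte markers summed to 400.4, of which Itga2b had 278.7, Vwf 66.9 and Pf4 37.2. Of the GMP's own markers 1 of 7 tested was called, the granule protease gene Ctsg, which fell by 0.31. At an unadjusted p of 0.05, 4 of the 7 passed (57.1%), all lower, where 16.4% of all tested genes passed. They were Ctsg, Fcgr3 (-0.32), Fcgr2b (-0.26) and the factor gene Cebpe (-0.41), while 3 lay above 0. Of 4 tested macrophage markers 1 was called, Vcam1, which fell by 1.24, while 3 lay above 0 and were not called. Of mature neutrophil markers 1 was tested and not called, and T and NK cell markers all had means under 10. Beside the fall of Sesn1 in MPP, no marker of another cell type was called by DESeq2 among 12 tested, with 4 at an unadjusted p of 0.05, where 9.72% of all tested genes reached it. They were the platelet integrin gene Itga2b (0.44), the T cell kinase gene Lck (-0.86), Pf4 (-0.92) and the macrophage receptor gene Cd163 (-0.32). Of 4 tested markers of the MPP itself none was called, with 2 above 0 and 2 below. Cd34 had -0.13 (SE 0.0638), Ly6a -0.02, Kit 0.08 and Cd48 0.10. Flt3, a cytokine receptor gene marked as an outlier, had -0.39 (SE 0.158). Erythroid markers were mostly marked as outliers, 5 of 9 found in each population, and the globin genes Hba-a1 and Hba-a2 were listed at 0. The part of these cells in the results was not tested.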

How the data were processed

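Amplified RNA of 16 sorted samples was sequenced, per the labels' protocols. The submitters' processing notes name STAR, DESeq2 and mm10 without versions. No source used here names the counter or the annotation. The deposited mean is a normalised signal over the libraries of a population. The log2 fold change, its SE and each p-value, raw or adjusted, are the authors', per the file headers. Directions rest on the names of the tables. The SE rises as the mean falls to about 10 and is smaller again below it, so fold changes of the rarest genes may be shrunken towards 0. In MPP the largest SE among tested genes was 0.388. Genes with higher means came close to it, as Vcam1 (0.388 at 81.3) and Car1 (0.383 at 1064), both marked as outliers. Variable genes at any level may therefore be shrunken too. Intervals and differences use the deposited values as they stand.

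The depth per library is unknown. The sum of all means was 9436210 for MPP and 11033900 for GMP. Precision is given by the SE, with a median of 0.165 in MPP and 0.124 in GMP over tested genes. A call means an adjusted p under 0.05 in the authors' test. Intervals of 95% are the value ± 1.96 SE. The smallest change that would have been called is the SE times the smallest ratio of change to SE among called genes. The difference between populations was computed as the difference of log2 fold changes over the root of the summed squared SEs, two-sided, with Benjamini-Hochberg adjustment over 17660 genes. The adjustment and this test were run on simulated normal errors at the deposited SEs, drawn independently for MPP and GMP. The simulation held neither the wider spread of the real statistics nor mice shared by both populations. The authors' DESeq2 test was not rerun. Exon lengths, overlaps and positions come from the GENCODE annotation of mm10, and promoters from RefSeq (GRCm38.p6). The tools were matplotlib 3.10.9, scipy 1.17.1, pandas 2.3.3 and numpy 2.4.6 under Python 3.11.15.

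Every member is accounted for. Members called in a table or in the difference, and the 6 of smallest p per table, are given with their errors. For other lists up to 4 called genes are named, or the 2 of smallest p where none was called. Atm, Ep300, Cdkn2a, Mtor, Atf4, Itgam, Ctsg, Vcam1, Vwf, Pf4, Itga2b, Lck, Cd163, Flt3, Cd34 and the promoters shown were chosen after their values were seen. The fold changes of Fcgr3, Fcgr2b, Cebpe, Gp9, Kit, Ly6a and Cd48 were chosen in the same way. The members and lists were chosen with earlier results of these data known. Alternatives were a threshold of 0.01 or 0.1, a minimum log2 fold change of 0.5, a minimum mean of 50, no filter, an empirical null, recentring on the median and correlated errors.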

Additional observations from a re-analysis of the deposited data

Results flagged for a closer look

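For 2 genes of the lists read here the change in GMP differed from that in MPP when both were set against each other. Sesn1 had a difference of 0.59 on the log2 scale, GMP less MPP, from -0.45 in MPP and 0.15 in GMP. It was 2.27 for the platelet factor gene Pf4, a megakaryocyte marker, from -0.92 in MPP and 1.35 in GMP at means of 11.5 and 37.2, in the authors' deposited tables.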

How the results depend on the processing

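The count of members called in MPP was 1 as deposited. It was 0 with a minimum absolute log2 fold change of 0.5 and 0 with the empirical null. In GMP it was 1 as deposited and 0 with the empirical null. The empirical null centres the test statistics and divides them by their spread over all tested genes, 1.15 in MPP and 1.35 in GMP. It left 18 of 73 calls over all genes in MPP and 72 of 456 in GMP. The number of members whose change differed between populations was 1, and 0 at an adjusted p of 0.01. At that threshold 0 of 17660 genes passed. With errors correlated at 0.346, the correlation of both statistics across genes, 49 genes passed, and among the members still Sesn1 alone. That correlation may also hold changes shared by both populations, so it is not a measure of the errors alone. A positive value narrows the SE of each difference, so this alternative could not have removed a call. Under recentring on the median the difference for Gadd45a turned from 0.0013 to -0.0027, which is within its error. Sesn1 in MPP, Cdkn1a in GMP and the difference of Sesn1 kept their call under the other alternatives run. The inclusion of outlier-marked genes in the test of the difference was chosen after seeing the data and gave 1 member again. Over all genes, an adjusted p of 0.01 left 36 calls in MPP and 198 in GMP, and one of 0.1 gave 100 and 768. A minimum change of 0.5 left 159 in GMP, 109 higher and 50 lower, against 201 higher and 255 lower as deposited. The empirical null gave 17 genes whose change differed, against 8. Leaving out a replicate was not run, since the tables hold no value per library. No paired analysis was possible because the tables hold no value per library, and 4 of the 8 replicate numbers shared by both populations name the same mouse. The SE was largest for rare members, and depth and spread between mice cannot be told apart in it. In MPP 6 tested members, Bbc3, Eda2r, Perp, Pmaip1, Sesn2 and Tnfrsf10b, would have needed a log2 fold change above 1 to be called.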
